A study of Mus musculus with 32 samples.

Results

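The 36 genes described here encode chemokines and cytokines, the secreted proteins through which kidney cells and leukocytes signal to each other. They were chosen as a list of mouse symbols by what they encode, with earlier results of these data known, and each symbol matched 1 row of the 53700 genes counted. Among those results, the study had named Cxcl10 and Il1rn as lower with salsalate, by RNA sequencing and also by qPCR. A read was counted on all 36 in at least 1 of the 32 kidneys, and on 28 in every kidney. For testing, a gene had to exceed 1 on the log2 scale of CPM, the count of a gene scaled to a common library size, in 25% of the kidneys, and 21 of the 36 passed. The other 15 were Ccl3, Ccl4, Ccl7, Ccl8, Ccl12, Ccl20, Cxcl2, Cxcl5, Cxcl11, Cxcl13, Csf2, Il1a, Il6, Il11 and Tnf, and they are given below by their counts and from a fit without the filter.

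Chemokines are small proteins that guide leukocytes along gradients, and they are named after the spacing of their first cysteines (CC, CXC, CX3C). Each binds to receptors on particular cells, for example CCL2 to CCR2 on monocytes, CXCL1 to CXCR2 on neutrophils and CXCL10 to CXCR3 on T cells and natural killer cells. CSF1 and IL-34 share the receptor CSF1R, which keeps macrophages alive, while LIF, IL-6 and IL-11 signal through the common chain gp130. In the kidney, tubular epithelium is itself a known source of several of these proteins after injury, and macrophages are known to surround cysts in polycystic kidney disease.

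The kidneys came from male iKspCre-Pkd1del mice on a C57BL/6 background, in which tamoxifen activates a Cre recombinase under the kidney-specific cadherin promoter and so deletes floxed exons of Pkd1 in tubular epithelium. The wildtype group (n = 8) was left without tamoxifen and was killed at 109 days of age. The PKD group (n = 12) received tamoxifen at 150 mg/kg on postnatal days 18 and 19 and was killed at 95 days. The PKD + Salsalate group (n = 12) had the same tamoxifen and age, and its food held salsalate, a prodrug of salicylate, at 2.5 g/kg from day 81 for 2 weeks. By the growth protocol all 3 groups carry the floxed alleles and the Cre transgene, so loss of Pkd1, the tamoxifen itself and the age difference of the groups cannot be told apart in a comparison with wildtype. The animals with PKD were chosen by the study for a similar mild cystic phenotype.

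Each kidney gave between 11193136 and 109807664 counts on genes, and the deepest library was PKD + Salsalate replicate 3. Pkd1 was read at 68.7 ± 10.9 CPM (SD) in wildtype, 92.1 ± 15.1 in PKD and 92.7 ± 15.1 in PKD + Salsalate kidneys. This count spans the whole gene, undeleted exons and undeleted cells included, and does not check the deletion. The summed level of 9 markers of kidney segments lay between 8797 and 16000 CPM in every kidney. Of the 8 wildtype libraries, 5 have names ending in R and 3 do not, as is the case for all 24 libraries with PKD. These 2 wildtype sets did not overlap for 22.4% of the 13961 tested genes with R higher and 21.4% with R lower, so each member whose sets do not overlap is given against each set. PKD replicate 10 carried 4179 CPM of summed liver transcripts (the other PKD kidneys 112.5 to 147 CPM).

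Corrected for exon length, the levels of the members differed widely. In PKD kidneys Mif, a cytokine stored preformed in many cell types, lay highest at 225 ± 31.4 CPM per kb (mean ± SD), although processed copies of Mif elsewhere in the genome make its count uncertain. It was followed by Cx3cl1 at 35.0 ± 4.99, Cxcl16 at 21.4 ± 2.39, Cxcl12 at 16.5 ± 2.50, Cxcl14 at 14.1 ± 1.91 and Il34 at 12.2 ± 1.35 CPM per kb. Cxcl10, at 6.97 ± 1.68 CPM per kb, and Csf1, at 5.62 ± 0.592, came next, with Ccl6 at 4.89 ± 0.722 and Ccl5 at 4.34 ± 0.989. Cxcl12 and Cxcl14, and Cxcl14 and Il34, lay closer to each other than the sum of their SDs, as did each pair of Cxcl10, Csf1, Ccl6 and Ccl5. The order within these sets is not resolved. Neither is that of Ccl8, at 3.47 ± 1.35 CPM per kb, with Ccl6 or Ccl5, nor that of Ccl2, at 3.20 ± 0.740, with Ccl5. The classic proinflammatory cytokines lay far lower, with Il1b at 1.17 ± 0.254, Tnf at 0.506 ± 0.142, Il6 at 0.105 ± 0.0657, Csf2 at 0.0326 ± 0.0468 and Il1a at 0.0245 ± 0.0360 CPM per kb. Csf2 and Il1a, the 2 lowest means of the 36, are not resolved from each other.

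The first comparison, PKD against wildtype, asked which of these genes differ in the cystic kidney. In PKD kidneys 14 of the 21 tested members were called at an adjusted p under 0.05 (edgeR's quasi-likelihood test, Benjamini-Hochberg adjusted over 13961 genes), 13 of them higher and 1 lower. Over all tested genes 49.1% were called, 24.1% higher and 25.0% lower. The median log2 fold change was 0.90 over the tested members and -0.01 over all tested genes. Of the 13 higher members, Il1rn, Lif, Ccl2 and Cxcl1 had no wildtype kidney over the filter and entered the test through the cystic kidneys, so they had to differ. For 10 of the 21, every PKD kidney lay above every wildtype kidney, which was the case for 5.21% of all tested genes. Without those 4, 10 of 17 members were called, 9 higher and 1 lower, 6 of 17 lay wholly above wildtype, and the median log2 fold change was 0.37. With bulk RNA, more cells of a type and more RNA per cell cannot be told apart.

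**Figure D1:**
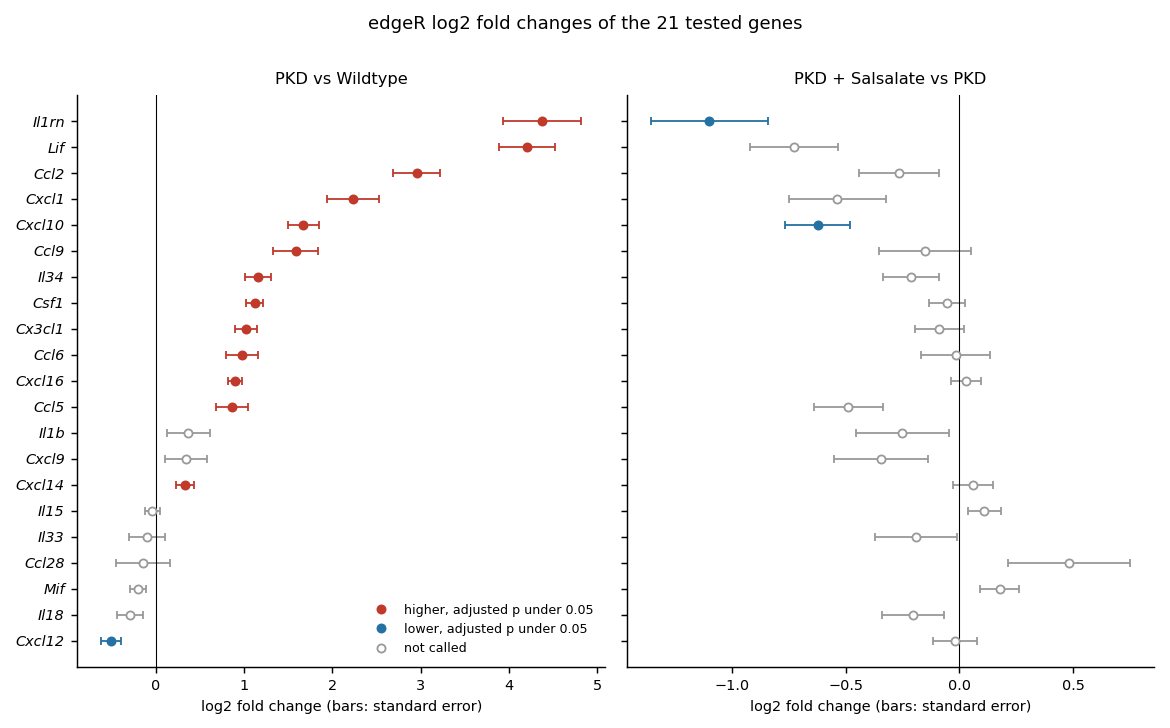
The log2 fold change of each of the 21 tested genes (points) with its standard error (bars) in PKD against Wildtype (left) and PKD + Salsalate against PKD (right), ordered by the left panel. Filled points passed an adjusted p under 0.05, 14 genes on the left and 2 on the right, and the 2 horizontal axes differ in scale.

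Among the CC chemokines that attract monocytes, all 4 tested members rose. Ccl2, the main ligand of the monocyte receptor CCR2, ranged from 0.297 to 0.608 CPM with a median of 0.476 in wildtype, from 2.49 to 4.86 CPM with a median of 3.78 in PKD and from 1.66 to 5.87 CPM with a median of 2.41 in PKD + Salsalate kidneys. The wildtype values did not overlap with those of either PKD group, and the log2 fold change in PKD was 2.95 (SE 0.26, adjusted p = 7e-11), a 7.75-fold rise. Ccl9 and Ccl6, CC chemokines of myeloid cells that mice have and humans lack, rose by 1.58 (SE 0.26, adjusted p = 6.11e-06) and 0.98 (SE 0.18, adjusted p = 5.02e-05). Ccl9 was read at 1.93 ± 1.21 CPM in wildtype (SD, n = 8) and 5.62 ± 1.19 CPM in PKD (n = 12), and Ccl6 at 4.62 ± 2.09 and 8.90 ± 1.31 CPM. For both, the wildtype and PKD ranges overlapped, while all 12 PKD kidneys lay above the wildtype median. Ccl5 (RANTES), a chemokine made by T cells and other cells, ranged from 0.892 to 3.27 CPM with a median of 2.83 in wildtype, from 3.39 to 6.67 CPM with a median of 4.19 in PKD and from 2.04 to 3.91 CPM with a median of 3.24 in PKD + Salsalate kidneys. No PKD kidney fell to the highest wildtype value, and the log2 fold change was 0.86 (SE 0.18, adjusted p = 0.000194). Ccl28, a chemokine of mucosal epithelia, the 1 tested member of the pair of epithelial CC chemokines, did not pass at -0.15 (SE 0.31, adjusted p = 0.718).

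Of the CXC chemokines, Cxcl1, which attracts neutrophils, ranged from 0.372 to 1.04 CPM with a median of 0.768 in wildtype, from 1.81 to 6.61 CPM with a median of 3.56 in PKD and from 1.28 to 3.89 CPM with a median of 2.25 in PKD + Salsalate kidneys. Its log2 fold change in PKD was 2.23 (SE 0.29, adjusted p = 1.31e-07), and all 12 PKD kidneys exceeded all 8 wildtype kidneys. Cxcl10, an interferon-inducible ligand of CXCR3, ranged from 3.27 to 7.80 CPM with a median of 4.62 in wildtype, from 9.53 to 23.2 CPM with a median of 15.2 in PKD and from 6.97 to 14.0 CPM with a median of 10.3 in PKD + Salsalate kidneys. The PKD values again lay wholly above wildtype, at a log2 fold change of 1.67 (SE 0.18, adjusted p = 1.96e-09). Cxcl9, which shares the receptor and the interferon control of Cxcl10, did not pass, with 4.58 ± 1.82 CPM in wildtype and 5.73 ± 2.40 CPM in PKD kidneys and a log2 fold change of 0.34 (SE 0.24, adjusted p = 0.23). The membrane-anchored pair Cxcl16 and Cx3cl1 (fractalkine), which proteases release as soluble chemokines, rose in every PKD kidney. Cxcl16 ranged from 50.6 to 64.4 CPM with a median of 59.3 in wildtype, from 88.7 to 132 CPM with a median of 109.8 in PKD and from 89.1 to 135 CPM with a median of 112 in PKD + Salsalate kidneys, at 0.90 (SE 0.08, adjusted p = 2.38e-11) on the log2 scale. Cx3cl1 rose by 1.02 (SE 0.12, adjusted p = 4.28e-08) from 68.5 ± 18.5 CPM to 139 ± 19.8 CPM. Cxcl14, an epithelial chemokine, rose by 0.33 (SE 0.10, adjusted p = 0.00745). Cxcl12, the homeostatic ligand of CXCR4, was the 1 member that fell, from 195 ± 37.3 CPM in wildtype to 137 ± 20.9 CPM in PKD, at -0.51 (SE 0.11, adjusted p = 0.000265) on the log2 scale, and its groups overlapped.

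Both tested ligands of CSF1R, the receptor that sustains macrophages, rose without overlap. Csf1 ranged from 11.7 to 18.1 CPM with a median of 15.6 in wildtype, from 26.5 to 38.8 CPM with a median of 33.0 in PKD and from 25.2 to 42.2 CPM with a median of 31.6 in PKD + Salsalate kidneys, and its log2 fold change in PKD was 1.12 (SE 0.10, adjusted p = 2.31e-11). Il34 ranged from 8.24 to 26.9 CPM with a median of 21.4 in wildtype, from 34.7 to 52.6 CPM with a median of 47.7 in PKD and from 29.9 to 54.6 CPM with a median of 39.7 in PKD + Salsalate kidneys, at 1.16 (SE 0.15, adjusted p = 6.86e-08). In both, the lowest PKD kidney lay above the highest wildtype kidney.

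The largest log2 fold changes among the 21 were those of Il1rn and Lif. Il1rn encodes the interleukin-1 receptor antagonist, which blocks IL-1 signalling, and ranged from 0.0454 to 0.254 CPM with a median of 0.111 in wildtype, from 1.23 to 5.32 CPM with a median of 2.81 in PKD and from 0.348 to 3.53 CPM with a median of 1.26 in PKD + Salsalate kidneys. A wildtype kidney held between 1 and 7 reads of it and a PKD kidney between 16 and 162, at a log2 fold change of 4.37 (SE 0.44, adjusted p = 1.02e-09). Lif (leukaemia inhibitory factor) ranged from 0.0947 to 0.409 CPM with a median of 0.273 in wildtype, from 2.85 to 8.43 CPM with a median of 4.74 in PKD and from 1.45 to 5.90 CPM with a median of 3.39 in PKD + Salsalate kidneys, at 4.21 (SE 0.32, adjusted p = 1.93e-12). For both genes every PKD kidney lay above the highest wildtype kidney. The agonist Il1b did not pass over all 8 wildtype kidneys, with 2.48 ± 1.51 CPM in wildtype, 3.04 ± 0.661 CPM in PKD and a log2 fold change of 0.37 (SE 0.24, adjusted p = 0.203). Il33, an alarmin of the same family, gave -0.10 (SE 0.20, adjusted p = 0.719), and Il18, a cytokine that caspase-1 activates, -0.29 (SE 0.15, adjusted p = 0.108). Outside the family, Il15 gave -0.04 (SE 0.08, adjusted p = 0.73) and Mif -0.20 (SE 0.09, adjusted p = 0.0803), and neither passed.

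**Figure D2:**
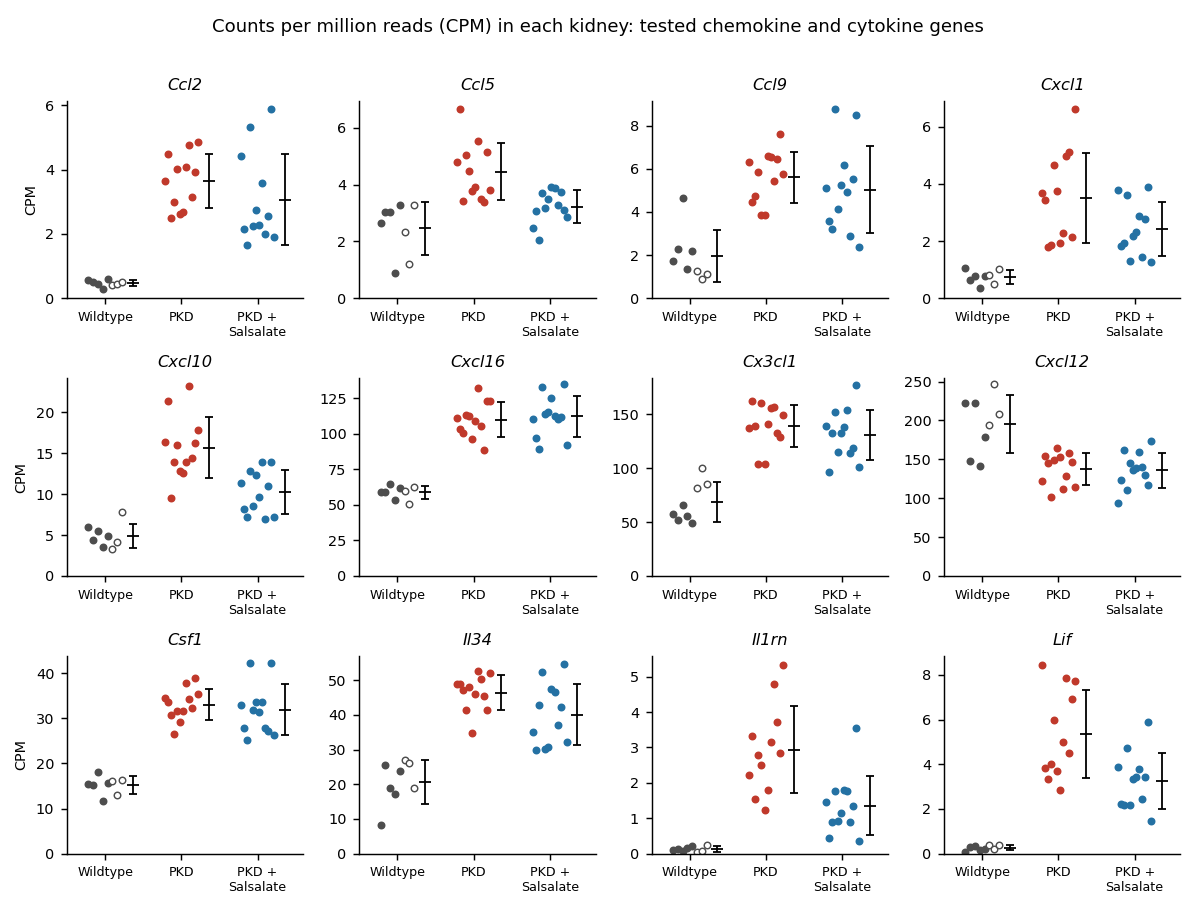
CPM on TMM-scaled library sizes (vertical axes, each starting at 0) in each of the 8 Wildtype, 12 PKD and 12 PKD + Salsalate kidneys for 12 tested genes, with black bars for the mean ± SD. Open circles are the 3 wildtype libraries whose names do not end in R, and in Cxcl10 and Il1rn the PKD + Salsalate points lie lower than the PKD points, with overlap.

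Promoter sequence is shown for 4 members that rose together in PKD. Cxcl10, Il1rn and Lif had the smallest adjusted p-values with salsalate, as described below, and Cxcl1 is shown beside them as a neutrophil chemokine. The RefSeq promoter table (GRCm38.p6) held 31 windows for 27 of the 36 members, each from 250 bases before to 50 bases after a transcript start. Members without an entry were Ccl2, Ccl4, Ccl5, Ccl7, Cxcl5, Cxcl11, Cxcl16, Il15 and Il34. The windows are printed 5′ to 3′ on the strand of the gene, and capitals mark matches on either strand to the kappaB consensus of NF-kappaB, the AP-1 motif TGANTCA or the interferon-type ISRE motif TTCNNTTTC.
Cxcl10, chr5:92348840-92349139, minus strand: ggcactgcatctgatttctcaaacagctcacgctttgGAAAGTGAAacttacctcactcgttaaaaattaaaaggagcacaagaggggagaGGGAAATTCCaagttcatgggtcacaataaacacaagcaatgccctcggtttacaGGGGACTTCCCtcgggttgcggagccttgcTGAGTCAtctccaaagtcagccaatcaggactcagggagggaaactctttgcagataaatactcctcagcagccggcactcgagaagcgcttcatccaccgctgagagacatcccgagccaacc
Il1rn, chr2:24336610-24336909, plus strand: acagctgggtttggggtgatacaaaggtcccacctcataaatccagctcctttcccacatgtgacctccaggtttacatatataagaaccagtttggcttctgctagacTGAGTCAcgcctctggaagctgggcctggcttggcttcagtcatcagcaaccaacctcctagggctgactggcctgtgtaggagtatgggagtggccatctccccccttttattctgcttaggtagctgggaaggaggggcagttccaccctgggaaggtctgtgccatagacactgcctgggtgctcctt
Lif, chr11:4257318-4257617, plus strand: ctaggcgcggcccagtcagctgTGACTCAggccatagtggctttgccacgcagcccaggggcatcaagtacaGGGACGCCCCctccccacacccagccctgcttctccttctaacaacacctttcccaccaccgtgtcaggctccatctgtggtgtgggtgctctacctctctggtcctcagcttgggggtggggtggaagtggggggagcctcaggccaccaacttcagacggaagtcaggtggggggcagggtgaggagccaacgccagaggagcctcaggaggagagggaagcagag
Cxcl1, chr5:90890995-90891294, plus strand: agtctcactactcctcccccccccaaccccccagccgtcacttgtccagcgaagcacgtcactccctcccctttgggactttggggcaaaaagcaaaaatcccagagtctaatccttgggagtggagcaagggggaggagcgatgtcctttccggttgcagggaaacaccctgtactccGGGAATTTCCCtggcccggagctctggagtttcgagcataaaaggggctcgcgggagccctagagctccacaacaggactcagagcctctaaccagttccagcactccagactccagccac
In the Cxcl10 window an ISRE-type match lay at positions -213 to -205 from the start, kappaB matches at -159 to -150 and, overlapping each other, at -104 to -94, and an AP-1 match at -74 to -68. The Cxcl1 window held overlapping kappaB matches at -71 to -61, and that of Lif held a kappaB match at -178 to -169 and an AP-1 match at -228 to -222. The Il1rn window printed held an AP-1 match at -141 to -135, and its 2 other windows held none of the motifs. Over all 27025 genes in RefSeq's promoter set, 9.55% held a kappaB match, 8.97% an AP-1 match and 9.76% an ISRE-type match. Of the 27 members these were 8, 9 and 5 genes. The GAS-type motif TTCNNNGAA was found in 1 member, Cxcl14, and in 9.55% of all genes. A match describes letters in this window, not a bound site.

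The 15 members under the filter were fitted without it, among 33588 genes with any count. In PKD, 9 of the 15 were called higher than in wildtype and 0 lower, where 12.2% of all genes in that fit were called higher. Among the monocyte chemokines, Ccl7, a further CCR2 ligand, ranged from 0 to 0.152 CPM with a median of 0.0635 in wildtype, from 0.175 to 0.897 CPM with a median of 0.613 in PKD and from 0.0957 to 1.04 CPM with a median of 0.464 in PKD + Salsalate kidneys, at a log2 fold change of 3.18 (SE 0.55, adjusted p = 2.59e-05). Ccl8 rose by 1.91 (SE 0.31, adjusted p = 1.03e-05) and Ccl12, another CCR2 ligand of mice, by 1.90 (SE 0.36, adjusted p = 0.000106). Ccl3 and Ccl4, the macrophage inflammatory proteins, gave 0.47 (SE 0.38, adjusted p = 0.399) and 0.14 (SE 0.26, adjusted p = 0.749) and were not called. Ccl3 lay at 0.548 ± 0.327 CPM in the R set of wildtype, 0.115 ± 0.0448 in the other wildtype libraries and 0.487 ± 0.244 in PKD. For Ccl4 these levels were 0.852 ± 0.358, 0.345 ± 0.101 and 0.694 ± 0.212 CPM. The wildtype sets overlapped for both genes, and neither gene was fitted against each set. The neutrophil chemokines Cxcl2 and Cxcl5 rose beside Cxcl1, Cxcl2 by 3.80 (SE 0.60, adjusted p = 5.23e-06) from 6 reads in the wildtype group. Il11, a gp130 cytokine, rose from 0.543 ± 0.165 CPM to 1.51 ± 0.674 CPM (adjusted p = 1.33e-05), and Tnf by 1.01 (SE 0.28, adjusted p = 0.00643), from 0.437 ± 0.242 CPM to 0.830 ± 0.233 CPM. Cxcl11, the third CXCR3 ligand, gave -0.33 (SE 0.20, adjusted p = 0.26) and Cxcl13, a B cell chemokine, -0.02 (SE 0.42, adjusted p = 1). The adjusted p-values in this paragraph come from edgeR's quasi-likelihood test.

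For 5 of these genes the wildtype group held only 1 to 3 reads in all, so their change is given as a ratio of summed counts with its exact 95% interval, which covers counting error only. Ccl20, the CCR6 ligand of epithelia, had 1 read in 8 wildtype kidneys and 85 in 12 PKD kidneys, a ratio per counted read of 39.4 (6.88 to 1570). Cxcl5 had 3 and 112 reads, a ratio of 17.3 (5.77 to 85.1), and Il6 had 3 and 70 reads, a ratio of 10.8 (3.55 to 53.7). For these 3 the fit called PKD higher. Il1a, with 1 and 19 reads, gave 8.80 (1.40 to 366), and Csf2, with 1 and 9 reads, gave 4.17 (0.578 to 183), and neither was called. Csf2 was at 0 in 7 of 12 PKD kidneys, and a count of 0 in a library allows up to 3 reads, or 0.0614 to 0.279 CPM over the PKD kidneys.

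**Figure D3:**
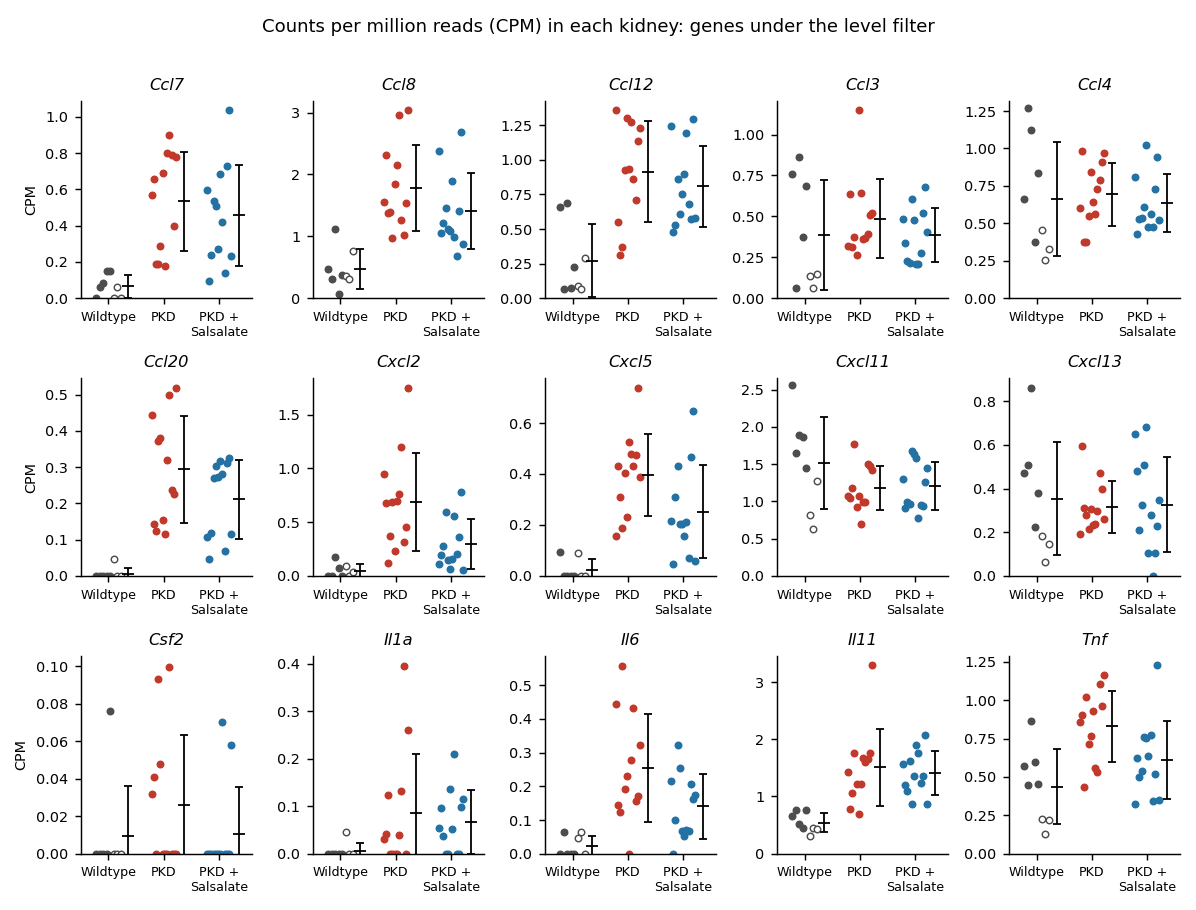
CPM (vertical axes, each starting at 0) in each of the 32 kidneys for the 15 genes under the level filter, with black bars for the mean ± SD, clipped at 0. Open circles are the 3 wildtype libraries whose names do not end in R, and Ccl7, Ccl20 and Cxcl5 are the 3 genes whose PKD kidneys all lie above all Wildtype kidneys.

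The choice of wildtype libraries decided the direction of several interleukin-1 family members. Il33 was read at 14.6 ± 5.55 CPM in the 5 wildtype libraries with names ending in R and at 5.49 ± 1.10 CPM in the other 3, around a PKD level of 10.2 ± 1.69 CPM. Fitted against the R set alone it was lower in PKD, at -0.50 on the log2 scale with an adjusted p of 0.0108, and against the other 3 higher, at 0.90 with 0.000136 (edgeR). Il1b, at 3.30 ± 1.31 and 1.11 ± 0.219 CPM in the 2 sets, gave -0.08 with an adjusted p of 0.762 and 1.46 with 7.46e-05. Il18 gave -0.54 with 0.00273 and 0.14 with 0.558. Over the 36 members, the R set lay wholly above the other set for 7 (Ccl9, Cxcl11, Cxcl13, Il1b, Il33, Il11 and Tnf) and wholly below it for Cx3cl1. Of these, 4 were under the filter and were fitted without it against each set, an alternative added after the data were seen. Tnf was read at 0.585 ± 0.169 CPM in the R set and 0.191 ± 0.0553 CPM in the others, and its rise in PKD passed against the others alone, at 2.02 (SE 0.40, adjusted p = 0.00035), and not against the R set, at 0.52 (SE 0.29, adjusted p = 0.187). Cxcl11, at 1.88 ± 0.419 and 0.907 ± 0.327 CPM, was lower in PKD against the R set, at -0.66 (SE 0.20, adjusted p = 0.00919), and gave 0.30 (SE 0.26, adjusted p = 0.523) against the others. Cxcl13 gave -0.56 (SE 0.42, adjusted p = 0.363) and 1.20 (SE 0.58, adjusted p = 0.184), and Il11 rose against both, by 1.26 (SE 0.30, adjusted p = 0.00111) and 1.88 (SE 0.37, adjusted p = 0.00036). These values are from edgeR. The 13 members called higher in PKD were higher against either set, and 12 of them passed against both. Cx3cl1 rose by 1.31 (adjusted p = 4e-10) against the R set and by 0.64 (adjusted p = 0.000849) against the others. Ccl9 rose by 1.21 (adjusted p = 0.000479) and 2.32 (adjusted p = 5.1e-06), and Il1rn by 4.35 and 4.38. Cxcl14 passed against the R set alone, at 0.34 with 0.0184, and not against the others, at 0.31 with 0.0887. Beside this, summed markers of kidney segments lay at 9918 CPM in the R set and 15267 CPM in the others, and those of B cells at 11.6 and 7.51 CPM, and their part in these differences was not tested.

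**Figure D4:**
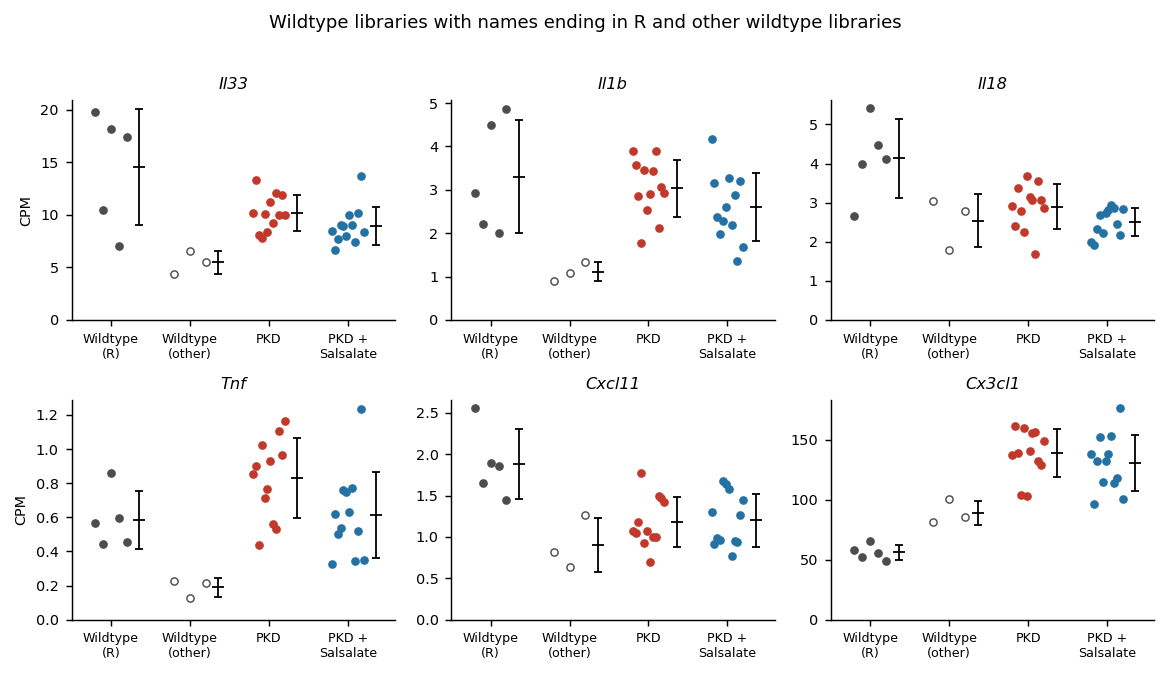
CPM (vertical axes, each starting at 0) in the 5 Wildtype libraries with names ending in R, the 3 other Wildtype libraries, 12 PKD and 12 PKD + Salsalate kidneys for 6 genes, with black bars for the mean ± SD. The PKD level of Il33 lies between those of the 2 Wildtype sets, and that of Il1b lies level with the R set and above the other set.

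The second comparison asked which of these genes 2 weeks of salsalate changed in PKD kidneys. In PKD + Salsalate against PKD 2 of the 21 tested members were called, both lower, and 0 higher. Over all tested genes 0.580% were called, 0.329% lower and 0.251% higher. Cxcl10 (ENSMUSG00000034855, chr5:92494497-92496748 in GRCm39) fell by 0.62 on the log2 scale (SE 0.14, adjusted p = 0.0301, edgeR), to 0.649 of the PKD level. All 12 treated kidneys lay below the PKD median of 15.2 CPM, the highest at 14.0 CPM, while the lowest PKD kidney was at 9.53 CPM. Il1rn (ENSMUSG00000026981, chr2:24226865-24241506 in GRCm39) fell by 1.10 (SE 0.26, adjusted p = 0.0351, edgeR), from 2.93 ± 1.23 to 1.36 ± 0.844 CPM. Of the 12 treated kidneys 11 lay below the PKD median of 2.81 CPM, and replicate 11, at 3.53 CPM, lay above it. Both remained above wildtype, Cxcl10 by 1.05 (SE 0.17, adjusted p = 1.1e-05) and Il1rn by 3.27 (SE 0.47, adjusted p = 1.06e-06) on the log2 scale.

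These 2 calls lay near the threshold and depended on single kidneys. Of 32 fits that each left out 1 kidney, 16 called 2 members, 2 called 3, 6 called 1 and 8 called none. Those with none left out replicate 2, 9 or 11 of the PKD group, or replicate 2, 3, 5, 9 or 12 of the treated group. Those with 1 left out replicate 1, 10 or 12 of the untreated kidneys, or replicate 1, 6 or 10 of the treated ones, and those with 3 left out PKD replicate 3 or treated replicate 11. The untreated replicate 10 is the kidney that carried 4179 CPM of summed liver transcripts. Cxcl10 was called in 23 of the 32 fits, with an adjusted p between 0.0109 and 0.0699, and Il1rn in 19, between 0.00286 and 0.0798. The fold changes moved little in these fits, from -0.67 to -0.56 for Cxcl10 and from -1.36 to -0.9996 for Il1rn.

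Lif, which rose with Il1rn in PKD, was next in line at -0.73 (SE 0.19, adjusted p = 0.0716), with 11 of 12 treated kidneys below the PKD median, and did not pass. Ccl5 gave -0.49 (SE 0.15, adjusted p = 0.136) with all 12 below the PKD median, and Cxcl1 -0.54 (SE 0.21, adjusted p = 0.312) with 9 of 12 below. DESeq2's Wald test called Lif as well (adjusted p = 0.0403), and limma-voom called Lif (adjusted p = 0.0276) and Ccl5 (adjusted p = 0.0433) beside Cxcl10 and Il1rn. An edgeR fit of the PKD and PKD + Salsalate groups alone called Ccl5 (adjusted p = 0.0396) beside them and not Lif (adjusted p = 0.0677). Several genes that had risen in PKD had log2 fold changes close to 0 with salsalate and did not pass. Cxcl16 gave 0.03 (SE 0.07, adjusted p = 0.935), Csf1 -0.06 (SE 0.08, adjusted p = 0.89), Ccl6 -0.02 (SE 0.15, adjusted p = 0.989) and Cx3cl1 -0.09 (SE 0.11, adjusted p = 0.864). Ccl2 did not pass either, at -0.27 (SE 0.18, adjusted p = 0.675), with treated kidneys spread from 1.66 to 5.87 CPM with a median of 2.41. Whether salsalate acted on Cxcl10 and Il1rn more than on these genes was not tested. Of the 21 members 16 had a negative log2 fold change, with a median of -0.19, and 6 had an unadjusted p under 0.05. Over all tested genes 54% were negative and the median was -0.01, and the share with an unadjusted p under 0.05 was not counted.

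Of the 15 members under the filter none was called with salsalate in the fit without it, while 3 had an unadjusted p under 0.05 and 14 had a negative sign. The shares of both over all genes of that fit were not counted, so neither count is read as a result about these members. The 3 with an unadjusted p under 0.05 were Cxcl2, Il6 and Csf2. Cxcl2 ranged from 0.125 to 1.75 CPM with a median of 0.683 in PKD and from 0.0580 to 0.778 CPM with a median of 0.198 in PKD + Salsalate kidneys, at -1.20 (SE 0.35, adjusted p = 0.164). Of the 12 treated kidneys 11 lay below the PKD median. Il6 gave -0.82 (SE 0.37, adjusted p = 0.562), from 0.255 ± 0.160 to 0.141 ± 0.0964 CPM with 9 of 12 treated kidneys below the PKD median. Csf2 had 9 reads in all PKD and 2 in all PKD + Salsalate kidneys, too few for a fold change. The p-values are again from edgeR.

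Within the treated group, PKD + Salsalate replicate 11 was the highest of its group for 9 of the 21 tested members and among the 3 highest for 14, whereas replicate 5 was the highest or among the 3 highest for none. Replicate 11 also carried the most macrophage, neutrophil, injured tubule and fibroblast transcript of its group, with 496 CPM of summed macrophage markers (group 216 to 496) and 3511 CPM of injured tubule markers (group 1045 to 3511). Without it, 3 members were called with salsalate, Cxcl10 at -0.67 (adjusted p = 0.0109), Il1rn at -1.36 (adjusted p = 0.00286) and Lif at -0.85 (adjusted p = 0.0142), all by edgeR. Over all genes the calls went from 81 to 226 in the same fit. Replicate 11 was singled out for its high values and held the highest treated level of Il1rn and Lif. Its Cxcl10, at 13.9 CPM, lay beside the highest of the group at 14.0 CPM. Leaving it out therefore had to deepen these falls, and the calls without it add nothing to those over all kidneys.

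The level of these 3 genes went with that of injured tubule markers from kidney to kidney. The list holds Havcr1 (KIM-1), Lcn2 (NGAL), Krt20, Vcam1 and Spp1 (osteopontin), and Spp1 makes up most of its sum. Over the 12 PKD kidneys Pearson's r of log2 values with the summed list was 0.82 for Cxcl10 (Spearman's rho 0.79), 0.82 for Il1rn (rho 0.70) and 0.70 for Lif (rho 0.70). Over the 12 PKD + Salsalate kidneys r was 0.76 (rho 0.77), 0.96 (rho 0.90) and 0.91 (rho 0.90) in the same order. These 12 relations, with macrophage markers as the other list, were chosen after the calls were known, and all 6 with injured tubule markers passed a 2-sided permutation test after Benjamini-Hochberg adjustment, the largest adjusted p being 0.012 for r and 0.020 for rho. Without the 2 kidneys farthest from the median of the list, r was between 0.63 and 0.91 for injured tubule markers and between 0.83 and 0.87 for macrophage markers in the treated group. With macrophage markers the 3 genes passed among the treated kidneys, with r of 0.86 (rho 0.81) for Cxcl10, 0.94 (rho 0.94) for Il1rn and 0.92 (rho 0.87) for Lif and an adjusted p of at most 0.00074 for r and 0.006 for rho. Among the untreated PKD kidneys they did not, with r of 0.34 (adjusted p = 0.29), 0.45 (adjusted p = 0.17) and 0.27 (adjusted p = 0.39) and rho of 0.24 (adjusted p = 0.48), 0.40 (adjusted p = 0.24) and 0.22 (adjusted p = 0.48) by the same permutation test. Whether the 2 groups differ in this was not tested.

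**Figure D5:**
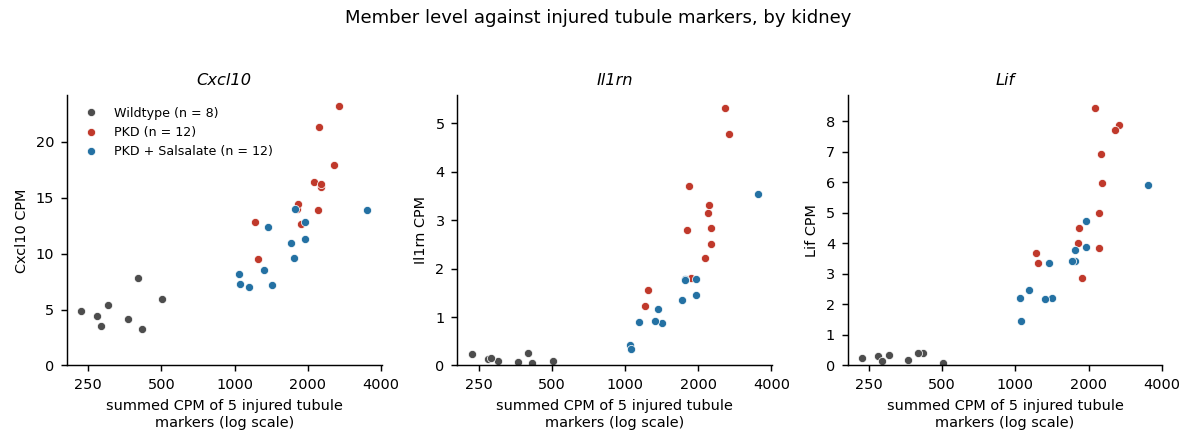
CPM of Cxcl10, Il1rn and Lif (vertical axes, from 0) against the summed CPM of 5 injured tubule markers (horizontal axis, log scale), 1 point per kidney in 3 groups. Wildtype kidneys lie at the low end of both axes, and within both PKD groups the genes are higher in kidneys with more injured tubule transcript.

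The marker lists themselves moved between the groups, and their part in the members' changes was not tested. Over all tested genes 24.1% were called higher and 25.0% lower in PKD. For 5.21% of them every PKD kidney lay above every wildtype kidney. Summed macrophage markers rose from 111 ± 28.4 CPM (SD) in wildtype to 319 ± 51.5 CPM in PKD and were at 303 ± 80.5 CPM with salsalate, with 9 of 9 genes called higher in PKD. Injured tubule markers went from 346 ± 90.1 to 2022 ± 457 and 1667 ± 667 CPM, with 5 of 5 higher, and fibroblast markers from 297 ± 40.3 to 899 ± 169 and 857 ± 223 CPM, with 5 of 5 higher. T cell markers went from 11.0 ± 3.58 to 15.5 ± 3.44 and 12.2 ± 1.77 CPM, with 2 of 3 tested genes higher in PKD, and B cell markers from 10.1 ± 3.79 to 6.30 ± 1.04 and 6.87 ± 1.58 CPM, with 2 of 3 lower. In wildtype the B cell sum was 11.6 ± 3.98 CPM in the R set and 7.51 ± 1.76 CPM in the others, so its fall in PKD was larger against the R set. The marker genes were not fitted against each set. Neutrophil markers rose from 3.06 ± 1.04 CPM, at most 4.40, to 6.69 ± 0.956 CPM, at least 5.49, in PKD and were at 6.30 ± 1.80 CPM with salsalate, so that wildtype and PKD kidneys did not overlap. In this list 1 gene of 6, Csf3r, was tested and was called higher, while Ly6g was at 0 in 28 of 32 kidneys, Retnlg in 10 and Mmp8 in 7. In PKD + Salsalate against PKD edgeR called 0 genes of these 6 lists.

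In the third comparison, PKD + Salsalate against wildtype, 14 of the 21 were called, 12 higher and 2 lower, where 44.9% of all tested genes were called, 21.8% higher and 23.2% lower. Among the 12 are Il1rn, Lif, Ccl2 and Cxcl1, which had no wildtype kidney over the filter, so their calls add nothing to this count. The count was not made again without them. This comparison shares its kidneys with the others and is given by its own values only. Ccl5 was no longer called, at 0.37 (SE 0.18, adjusted p = 0.091), with 3.23 ± 0.571 CPM against 2.46 ± 0.929 in wildtype. Cxcl12 stayed lower at -0.52 (SE 0.11, adjusted p = 0.000204), and Il18 was called lower at -0.50 (SE 0.15, adjusted p = 0.00811), a call that ended against the 3 wildtype libraries without R (log2 fold change -0.06, adjusted p = 0.835). Lif was still 11.2-fold and Ccl2 6.44-fold above wildtype.

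The receptors of these ligands were taken from a list of 39 genes, of which 24 were tested. In PKD 22 of them were called, 20 higher and 2 lower, with a median log2 fold change of 0.68, where 49.1% of all tested genes were called, 24.1% higher and 25.0% lower, around a median of -0.01. The IL-18 receptor chain Il18r1 rose most, by 2.37 (SE 0.20, adjusted p = 2.98e-11), from 1.09 ± 0.381 to 5.74 ± 1.28 CPM, while its ligand Il18 did not pass, as given above. The wildtype mean of Il18r1 lay under the filter level, so it entered the test largely through the cystic kidneys and had to differ. The receptors were not counted again without such genes. The IL-1 receptor Il1r1 rose by 0.95 (SE 0.09, adjusted p = 2.77e-10). The monocyte receptor Ccr2 rose by 1.45 (SE 0.15, adjusted p = 1.6e-09), from 7.02 ± 2.01 to 19.0 ± 2.15 CPM, and the fractalkine receptor Cx3cr1 by 1.17 (SE 0.15, adjusted p = 1.72e-07). The MIF receptor pair Cd74, also the invariant chain of MHC class II, and Cd44, a hyaluronan receptor, rose by 1.20 (SE 0.12, adjusted p = 1.22e-09) and 1.93 (SE 0.19, adjusted p = 3.15e-10). Tnfrsf1b, a receptor of TNF, rose by 1.22 (SE 0.14, adjusted p = 1.23e-08), the GM-CSF receptor chain Csf2ra by 0.80 (SE 0.11, adjusted p = 5.27e-07), and Il18bp, which traps IL-18, by 0.70 (SE 0.10, adjusted p = 8.87e-07). Il11ra1, the receptor of IL-11, fell by 0.62 on the log2 scale (SE 0.09, adjusted p = 1.4e-06), and Il15ra by 0.40 (SE 0.10, adjusted p = 0.00111). Against the wildtype R set alone 22 receptors were called in PKD, 20 higher and 2 lower, with 8297 genes called in all. Against the libraries without R 20 were called, 19 higher and 1 lower, with 5660 genes called in all.

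Of 8 genes that release or trim these proteins, 7 were tested and 4 rose. This is a share of 57.1% called, all higher, where 49.1% of all tested genes were called and 24.1% called higher. With 7 genes, no conclusion is drawn about the list. Adam17 and Adam10, the proteases that shed membrane-bound TNF, CX3CL1 and CXCL16, rose by 0.48 (SE 0.07, adjusted p = 1.64e-06) and 0.69 (SE 0.11, adjusted p = 3.42e-06). Dpp4, which trims several chemokines, rose by 0.46 (SE 0.08, adjusted p = 1.01e-05) and Casp4, an inflammatory caspase, by 0.81 (SE 0.18, adjusted p = 0.000518), while Casp1, which matures IL-1β and IL-18, gave -0.08 (SE 0.21, adjusted p = 0.78). With salsalate edgeR called 0 of the 24 receptors and 0 of the 7 processing genes. At an unadjusted p under 0.05 there were 4 receptors (Cd44, Il2rb, Il18bp and Tnfrsf1b, named for that p after their values were seen) and 0 processing genes, and limma-voom called 1 receptor. Cd44 had the smallest of these p-values, at -0.48 (SE 0.15, adjusted p = 0.119). The share of all tested genes with such an unadjusted p was not counted.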

How the data were processed

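RNA of 32 kidneys was sequenced as directional poly(A) libraries. According to the study's methods and the submitters' processing notes, the authors trimmed reads with cutadapt 2.10, aligned them to GRCm39 with STAR 2.7.5a and counted them on genes with HTSeq 0.12.4, and the deposited values are raw counts per gene. The methods name the stranded setting yes for a directional kit, and which setting was in fact used could not be told from the counts. Of the alignments in a file, 73.6% to 83.1% were counted on genes and 7.60% to 16.4% on no feature. Counting was thus not mostly on the strand opposite to the genes. The rows that name no gene were left out of library sizes and tests. Here genes over 1 on the log2 CPM scale in 25% of kidneys were kept, and the 3 groups were fitted together with edgeR 4.0.16 (TMM, quasi-likelihood test, R 4.3.3). P-values were Benjamini-Hochberg adjusted over all tested genes, with a threshold of 0.05. CPM are counts on TMM-scaled totals. Correlations used log2(CPM + 1) and 100000 permutations. Alternatives were DESeq2 1.42.0, limma 3.58.1 (voom), other scalings and filters, a replicate block, each wildtype set alone and leaving out each kidney. On simulated counts of 13837 genes with 200 altered 2-fold in PKD, the fit called 208 genes in PKD against wildtype, 195 of them altered ones, and 208 in PKD + Salsalate against PKD, 197 of them altered ones. The simulation altered far fewer genes than were called in the data and put no difference between the wildtype sets. It checks the code, and not how the fit behaves on these kidneys.

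Groups and replicate numbers came from the labels, which tie each kidney to no litter or batch. The members and the receptor, processing and marker lists were chosen with earlier results of these data known. All 36 members are named by role, with the 12 receptor or processing genes of smallest adjusted p in PKD against wildtype, the marker lists that moved with the groups, and Pkd1. Of these 12 genes, 1 is not reported here. Il15ra, Adam10, Dpp4, Casp4 and Casp1 were named beside these after their values were seen. Intervals cover counting error only.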

Additional observations from a re-analysis of the deposited data

Results flagged for a closer look

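In 8 wildtype kidneys each of the 36 members was examined for a kidney far from the others, a rule that chance meets in about 1 of 20 groups, and 5 were found. Ccl9 was at 4.66 CPM in wildtype replicate 3 (54 reads), where the next kidney was at 2.28 CPM. Mif was at 307.66 CPM in wildtype replicate 4, where the next was at 227.26 CPM. The other 3 rest on a single read each, Ccl20 and Il1a at 0.0454 CPM in wildtype replicate 6 and Csf2 at 0.0760 CPM in wildtype replicate 5, with 0 reads in the other 7 kidneys. Groups of 12 were not examined in this way.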

How the results depend on the processing

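In PKD + Salsalate against PKD, limma-voom called 4 of the 21 members and 1 receptor, the fit of only these groups called 3 of 22 members, and the fits that each left out 1 kidney called 0 to 3 members and 0 to 1 receptors. A fit with the replicate number as a block called 0 members, with an adjusted p of 0.0707 for Cxcl10 and 0.0596 for Il1rn and 48 genes called in all. The numbers name kidneys and do not pair them, since 8 of 28 same-numbered pairs correlated above 0.1 and 12 below -0.1, and 3 of 32 kidneys correlated best with their own number. Over all genes 81 were called in this comparison, against 199 by DESeq2's Wald test, 146 by limma-voom, 195 with only these groups fitted, 145 and 257 with either wildtype set alone, 120 without the filter and 39 to 226 without single kidneys. Without the filter, against the libraries without R, Cxcl11 gave 0.305 and Cxcl13 1.20 in PKD against wildtype, where all 8 gave a negative sign. With all wildtype libraries and no filter 23 members were called in PKD against wildtype and 22 in PKD + Salsalate against wildtype.

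Directions turned for log2 fold changes near 0 and for those that depend on the wildtype set. Against wildtype in PKD, Il33 gave 0.23 by limma-voom and 0.90 with the libraries without R, Il18 0.14 with the latter, and Ccl28 0.0598 and Il1b -0.0817 with the R libraries. In PKD + Salsalate against wildtype, Il33 gave 0.0101 by limma-voom and 0.71 without R, Il1b -0.34 with R and Mif 0.11 without R. Cxcl9 gave 0.0178 with upper-quartile factors, 0.0193 without the filter, 0.11 with the replicate block, 0.0043 with only these groups and 0.38 without R. Leaving out 1 kidney turned Ccl28 (-0.37 to 0.11) and Il33 (-0.22 to 0.0704) in PKD against wildtype. It turned Cxcl9 (-0.11 to 0.13), Il1b (-0.0191 to 0.34) and Mif (-0.075 to 0.0691) in PKD + Salsalate against wildtype, and Ccl6 (-0.10 to 0.0391), Cxcl12 (-0.0558 to 0.0214) and Cxcl14 (-0.0059 to 0.0891) in PKD + Salsalate against PKD. The cause was not tested.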
